A study of Schima superba and Cryptocarya concinna with 24 samples.

Results

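Young leaves of the subtropical forest tree Cryptocarya concinna, grown in full light or in low light, were compared over every assembled transcript with an FPKM (fragments per kilobase of transcript, scaled to the mapped fragments of the library) reaching 1 in 3 or more of the 6 young libraries. This rule took 40492 of the 60814 assembled transcripts (unigenes) of the species, out of 117867 unigenes in the whole series. The full light group was young leaf of seedlings under 100% sunlight, and the low light group was young leaf of seedlings under black nylon net that passed 30% of it, with 3 libraries each. Seedlings of both groups had been taken from 1 natural subtropical forest. The series also holds mature leaves in both lights and a second tree, Schima superba, 24 libraries in all, and of these only the 6 mature C. concinna libraries are used below, beside the young ones. Nothing in the labels ties the 3 replicates of a group to different plants, so the p-values below reflect the spread between these libraries alone, which may be technical.

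Leaves that develop in sun and in shade are built differently. Shade leaves put more of their protein into light-harvesting antennae, the chlorophyll-binding proteins that collect photons and pass the energy to the photosystems, while sun leaves invest in carbon fixation, in dissipation and repair of excess excitation, and in thicker walls and cuticle. A young leaf also divides and expands, so its transcripts carry histones, ribosomal proteins, wall-loosening enzymes and water channels, and their levels follow the stage of the leaf as well as its light.

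Few single unigenes passed the test for light in young leaves at an adjusted p under 0.05. By the looser measure of libraries that did not overlap between the lights, 22.9% of the unigenes compared were above in full light and 5.93% below. By that looser measure, 16 of 40 gene lists were apart in summed level. Antenna, ribosomal protein, histone, lipid transfer protein and aquaporin transcripts summed to less in every full light library than in every low light one. Transcripts of disease resistance receptors, light receptors, starch and sucrose metabolism, cuticle and wax, and thylakoid repair summed to more. For cuticle and wax and for thylakoid repair, the shares of single unigenes above were 21% and 22.9%, near that of all unigenes compared. Full light libraries also held more kinds of transcript at low level, and low light libraries concentrated more of their signal in abundant ones.

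Full light libraries had more detectable transcripts. At an FPKM of at least 1, 44030, 41072 and 40797 unigenes were detected in full light, against 35536, 31663 and 36148 in low light, out of all 60814. The groups did not overlap, and the means were 41966 ± 1792 in full light and 34449 ± 2432 in low light (SD, n = 3 each, two-sided exact permutation p = 0.1, the smallest that 3 against 3 can give). Unigenes without a database hit made up most of the gap, with 14639, 12544 and 11933 detected in full light, against 9152, 7028 and 8979 in low light, while those with a hit numbered 29391, 28528 and 28864 in full light against 26384, 24635 and 27169 in low light. Conversely, the 100 most abundant unigenes held 15.8%, 15.4% and 16.3% of summed FPKM in full light libraries, and 18.5%, 23.0% and 17.8% in low light ones (exact permutation p = 0.1). In mature leaves detection stood at 40706 ± 2870 unigenes in full light and 40138 ± 3881 in low light (SD, n = 3 each, exact permutation p = 0.8). The number of reads is unknown here. An indirect estimate used the most common ratio to young full light replicate 1 among unigenes at 0.25 to 1.5 FPKM in both libraries. It put the other 5 young libraries at 1.01 to 1.04 times the depth of that library, which is not a count of reads. Summed FPKM ran between 788453 and 891966. The leaf label fitted the values, since Rubisco small chains and antenna proteins were among the 10 most abundant transcripts, and the growing-leaf genes expansin-A15-like and ECERIFERUM 1-like averaged 405 and 523 FPKM in young full light leaves, against 0 and 0.24 FPKM in mature ones.

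**Figure D1:**
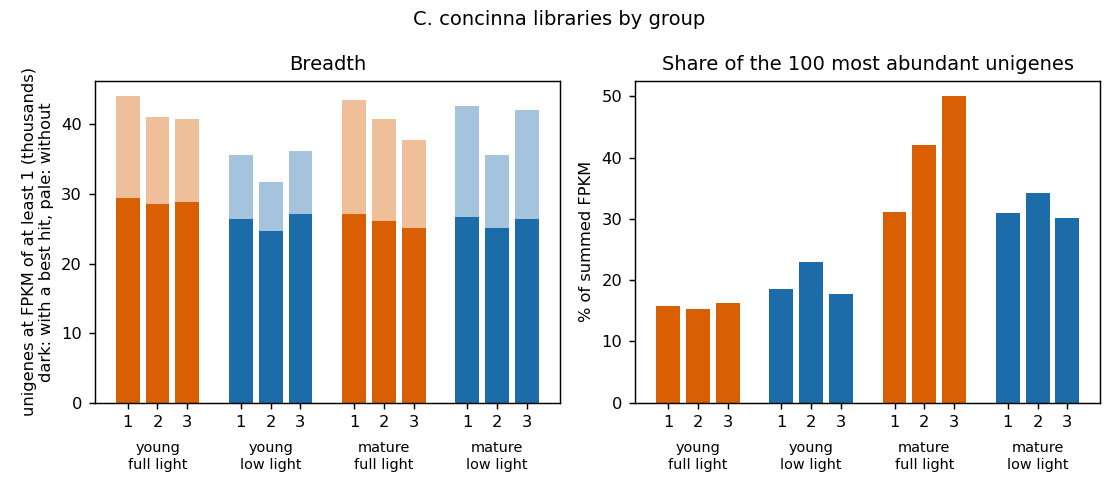
Left, unigenes with an FPKM of at least 1 in each C. concinna library, dark for those with a best database hit and pale for those without; right, percent of summed FPKM in the 100 most abundant unigenes. In young leaves the 3 full light bars stand above the 3 low light bars on the left (40797 to 44030 against 31663 to 36148) and below them on the right, while mature groups overlap.

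Individual libraries stood apart. Young low light replicate 2 had the fewest unigenes detected. The 42 markers of organelle-encoded and ribosomal RNA summed to 213, 186 and 194 FPKM in full light, against 306, 1603 and 284 in low light, with 0 of 30 members above and 8 below. The groups were apart with that library (ratio 0.270) and without it (0.670). A hypothetical protein (CL5667.Contig3) stood at 240.3, 209 and 230.5 FPKM in full light, against 342, 18146 and 857 in low light. Young full light replicate 1 had the highest sum of heat shock and chaperone unigenes, at 30739 FPKM, against 16820 and 13808 in the other full light libraries and 10829, 16857 and 17109 in low light. Markers of protoderm and stomatal lineage also differed within groups: protodermal factor 1 (Unigene35224), of the young epidermis, stood at 143, 28.7 and 29.9 FPKM in full light, against 16.3, 193 and 97.2 in low light. The 13 markers of epidermis, trichome and guard cell, all members, summed to 93.2 to 259 FPKM in full light and 109 to 284 in low light, with 2 above and 2 below. The 21 vascular markers, 15 of them members, summed to 136 to 323 FPKM in full light and 184 to 367 in low light, with 1 above and 2 below. In whole leaves, fewer cells of a type and less RNA per cell cannot be told apart. Several list results below are given with and without 1 of these libraries, but not all of them. The part of leaf stage, cell makeup and organelle RNA in the differences below was not tested.

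Single transcripts were tested with limma on log2(FPKM + 1), with p-values adjusted (Benjamini-Hochberg) over 53005 unigenes. At an adjusted p under 0.05, 16 were called in young leaves, 13 higher and 3 lower in full light, which is 0.0302% of those tested (0.0245% higher and 0.00566% lower). All 16 are members, or 0.0395% of them (0.0321% higher and 0.00741% lower). At an unadjusted p under 0.05 the number was 9484 (17.9%), of which 7756 (14.6%) were higher and 1728 (3.26%) lower in full light, and the lowest adjusted p was 0.00196. Among the 40492 members, every full light library lay above every low light one for 9257 (22.9%) and below for 2403 (5.93%), and over all unigenes tested the shares were 22% and 4.65%. Without young low light replicate 2 they were 25% and 9.76% of members, and without young full light replicate 1, 29.8% and 7.91%. Of the members, 1483 reached 1 FPKM in all 3 full light and in none of the low light libraries, and 66 in the opposite way. These entered only through the light in which they were high, so counts over members lean with it. Just inside the rule, 5025 unigenes reached 1 FPKM in exactly 3 libraries (median of their mean FPKM 1.24), and just outside, 5227 did so in exactly 2 (0.86).

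The called transcript with the highest expression was a histone. Histone H2B.11-like (CL1900.Contig1), a core protein of the nucleosome made mostly while DNA is copied, stood at 43.5, 67.6 and 76.6 FPKM in full light, against 229, 399 and 312 in low light. The groups were far apart, with means of 62.5 ± 17.1 FPKM in full light and 313 ± 85 FPKM in low light (SD, n = 3 each), and it fell by 2.31 on the log2 scale (SE 0.28, limma adjusted p = 0.014). The sum of its 3-contig cluster stood at 48.7, 72 and 81.7 FPKM in full light, against 244.4, 424 and 319 in low light (log2 fold change -2.27, limma adjusted p = 0.0119). In mature leaves it stood at 92 ± 25.9 FPKM in full light and 101 ± 3.6 in low light (SD, n = 3 each), with overlapping libraries. It no longer passed when young replicate 2 of either light, or young replicate 3 of low light, was left out, nor with only the 6 young libraries in the fit.

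Among wall enzymes, cellulose synthase-like protein E6 (CL6913.Contig1), of a family that makes backbones of wall polysaccharides, stood at 26.5, 36.2 and 33.1 FPKM in full light, against 2.92, 5.37 and 0.17 in low light. It rose by 3.41 on the log2 scale (SE 0.49, limma adjusted p = 0.0442), and its cluster summed to 33, 45.1 and 38.8 FPKM in full light against 8.71, 6.93 and 2.98 in low light. The call was near the threshold and was lost under 18 of 23 other settings, among them leaving out any of the 3 young full light or the 6 mature libraries. In mature leaves the same contig was at overlapping levels in both lights, with means of 113 ± 35.7 FPKM in full light, against 94.3 ± 26.3 in low light (SD, n = 3 each).

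Of the regulators, NAC transcription factor 25-like (CL6619.Contig4), of a plant family of transcription factors that act in development and stress, stood at 13.8, 13.5 and 12.5 FPKM in full light, against 0.46, 1.83 and 1.5 in low light (a log2 fold change of 2.71, SE 0.30, limma adjusted p = 0.00744). Scarecrow-like protein 21 (CL2988.Contig2), of the GRAS family of transcriptional regulators, stood at 28.6, 13.4 and 6.63 FPKM in full light and was listed at 0 in the 3 low light libraries (limma adjusted p = 0.02). Both contigs were also called in mature leaves, and they are the 2 unigenes called at both ages. NAC 25-like stood there at 34.1, 24 and 22.7 FPKM in full light against 5.21, 4.76 and 3.54 in low light (log2 fold change 2.33), and scarecrow-like 21 at 14.1, 45.5 and 22.7 in full light against 0.75, 0.84 and 0 in low light (log2 fold change 4.11).

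For both regulators the sum over the contigs of the cluster did not pass the test. The 3 contigs of the scarecrow-like cluster summed to 32.7, 33.2 and 41.8 FPKM in young full light leaves and 27.5, 24.3 and 30 in low light leaves (log2 fold change 0.38, limma adjusted p = 0.278). The 4 contigs of the NAC cluster summed to 36.7, 31.6 and 24.8 in full light against 20, 14.6 and 15.3 in low light (log2 fold change 0.86, limma adjusted p = 0.285). A putative GPI-anchored protein (CL7257.Contig2) stood at 13.1, 6.56 and 3.83 FPKM in full light and was listed at 0 in low light, while its cluster summed to 13.1, 6.57 and 7.43 in full light against 3.34, 2.83 and 5.39 in low light (limma adjusted p = 0.144). Contigs of a cluster are similar sequences that can share reads, so the split between them is uncertain, and 9 of the 16 called unigenes are of this kind.

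A pair of the called contigs had an ankyrin repeat-containing protein, similar to Arabidopsis At5g02620, as best hit (E-values of 1.03e-12 and 1.08e-12). Ankyrin repeats are protein-binding modules. CL750.Contig2 stood at 16.9, 23.5 and 14.2 FPKM in full light, against 0, 0.08 and 0.17 in low light (a log2 fold change of 4.12, SE 0.37, limma adjusted p = 0.00225), and CL750.Contig3 at 7.85, 7.18 and 6.71 in full light against a listed 0 in all 3 low light libraries (limma adjusted p = 0.00196). The third contig of the cluster was seen in low light replicate 2, so that cluster sums were 30.5, 45.6 and 30.3 FPKM in full light, against 0.08, 8.93 and 0.17 in low light (log2 fold change 3.95, limma adjusted p = 0.0987). In mature leaves CL750.Contig2 averaged 0.373 FPKM in full light and 0.237 in low light.

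The other 9 called unigenes have no hit or no informative description. Unigene4561, without a hit, stood at 32.4, 25 and 16.8 FPKM in full light and was listed at 0 in low light, and CL5733.Contig2, a hypothetical protein, at 25.6, 24.9 and 12.3 in full light against 0.05, 0 and 0 in low light. Further members without a hit, Unigene26262, Unigene21224 and Unigene3463, had means of 10.4, 5.67 and 5.05 FPKM in full light and were listed at 0 in low light. The hypothetical proteins CL2768.Contig1 and Unigene37859 had means of 18.1 ± 4.5 and 9.95 ± 3.27 FPKM in full light, against 4.12 ± 0.83 and 0.727 ± 0.301 in low light (SD, n = 3 each). Lower in full light were Unigene574, at 0, 0.16 and 0.47 FPKM in full light against 5.42, 9.59 and 15.5 in low light, and Unigene30908, listed at 0 against 4.12, 3.35 and 2.34. Of all 16, 7 were listed at 0 in the 3 low light libraries and 1 in the 3 full light ones. Whichever single library was left out, 6 stayed called, namely NAC 25-like, both ankyrin repeat contigs, Unigene4561, Unigene26262 and Unigene574. Of these, NAC 25-like, Unigene26262 and Unigene574 did not pass with only the 6 young libraries in the fit. The calls of scarecrow-like 21, CL5733.Contig2, CL2768.Contig1, Unigene37859, Unigene21224 and Unigene3463 were each lost when young replicate 1 or 2 of full light, or young replicate 2 or 3 of low light, was left out, and that of CL7257.Contig2 in the last 3 of these 4 cases. Unigene30908 was lost without any of the 3 young full light libraries or without young low light replicate 2. Unigene21224 was also lost without young full light replicate 3, CL2768.Contig1 without any mature full light library, and both Unigene37859 and Unigene21224 without mature low light replicate 1 or 3.

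**Figure D2:**
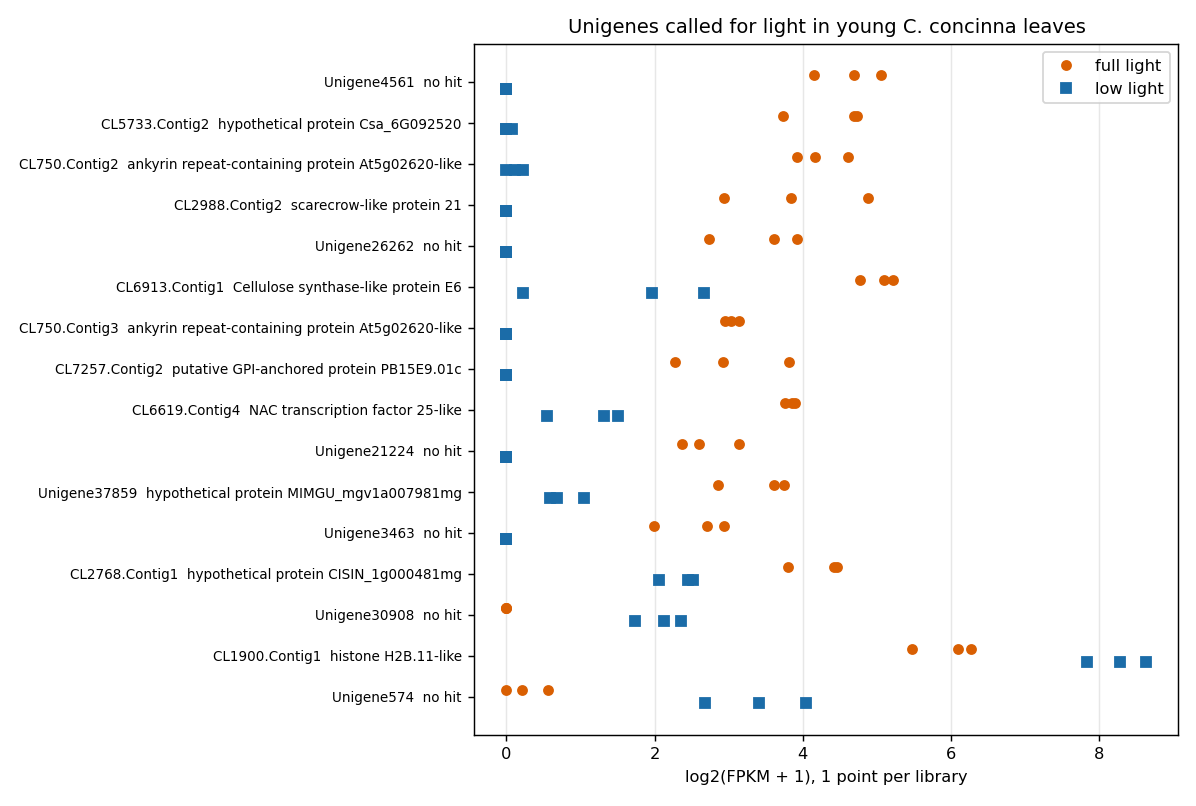
Expression of the 16 unigenes called for light in young leaves, as log2(FPKM + 1) on the x axis, with 1 point per library, circles for full light above squares for low light. Full light points lie to the right of low light points in 13 rows and to the left in 3, and only histone H2B.11-like exceeds 100 FPKM.

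Across members, the light difference went with abundance. Members with a mean FPKM under 2 over the 6 young libraries had a median log2 fold change of 0.46, and the median was smaller in each higher class, reaching 0.10 at 20 to 50 FPKM, -0.11 at 50 to 100 and -0.40 in the 160 members of 500 or more. In the class of 100 to 500 FPKM, 4.44% of members had every full light library above and 34.7% every one below. The median over all members was 0.33 as deposited, -0.04 with median-ratio rescaling and 0.02 with quantile normalization. Quantile normalization gives all libraries the same distribution, so its small medians follow largely by design. The medians of several lists are therefore also given relative to the median of all members. Other lists are given as deposited only. At an unadjusted p under 0.05, full light was higher for 17% and lower for 4.17% of members as deposited, 6.82% and 12.7% with median-ratio rescaling, and 6.64% and 7.22% with quantile normalization. Without young low light replicate 2 the median of all members was 0.20.

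**Figure D3:**
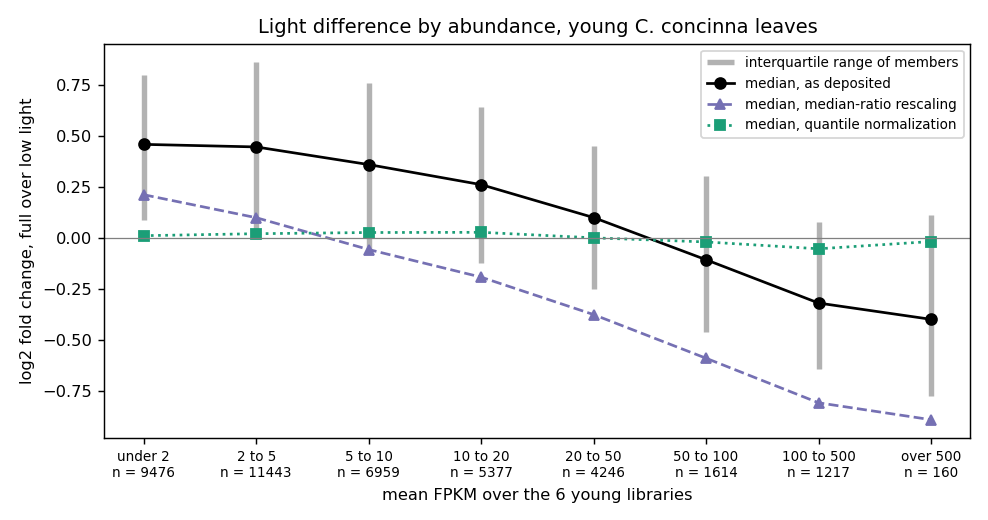
Median log2 fold change of members, full over low light, in classes of mean FPKM over the 6 young libraries, with the interquartile range of members as grey bars and medians under the 2 rescalings as dashed and dotted lines. As deposited the median goes from 0.46 in the lowest class to -0.40 in the highest. With quantile normalization, which gives all libraries the same distribution, the class medians lie between -0.05 and 0.03, largely by design.

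Gene groups were formed by words in the best-hit descriptions, which gave 40 pathway lists and 4 lists of other cell types and RNA quality. Summed FPKM of all unigenes of a list is a level per transcript length. Of the 40 pathway lists, 7 had every full light library above every low light one, 9 had every one below and 24 overlapped. Only 2 lists held a called member. List counts below are of members whose libraries did not overlap between lights, to be read against 22.9% above and 5.93% below for all members.

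**Figure D4:**
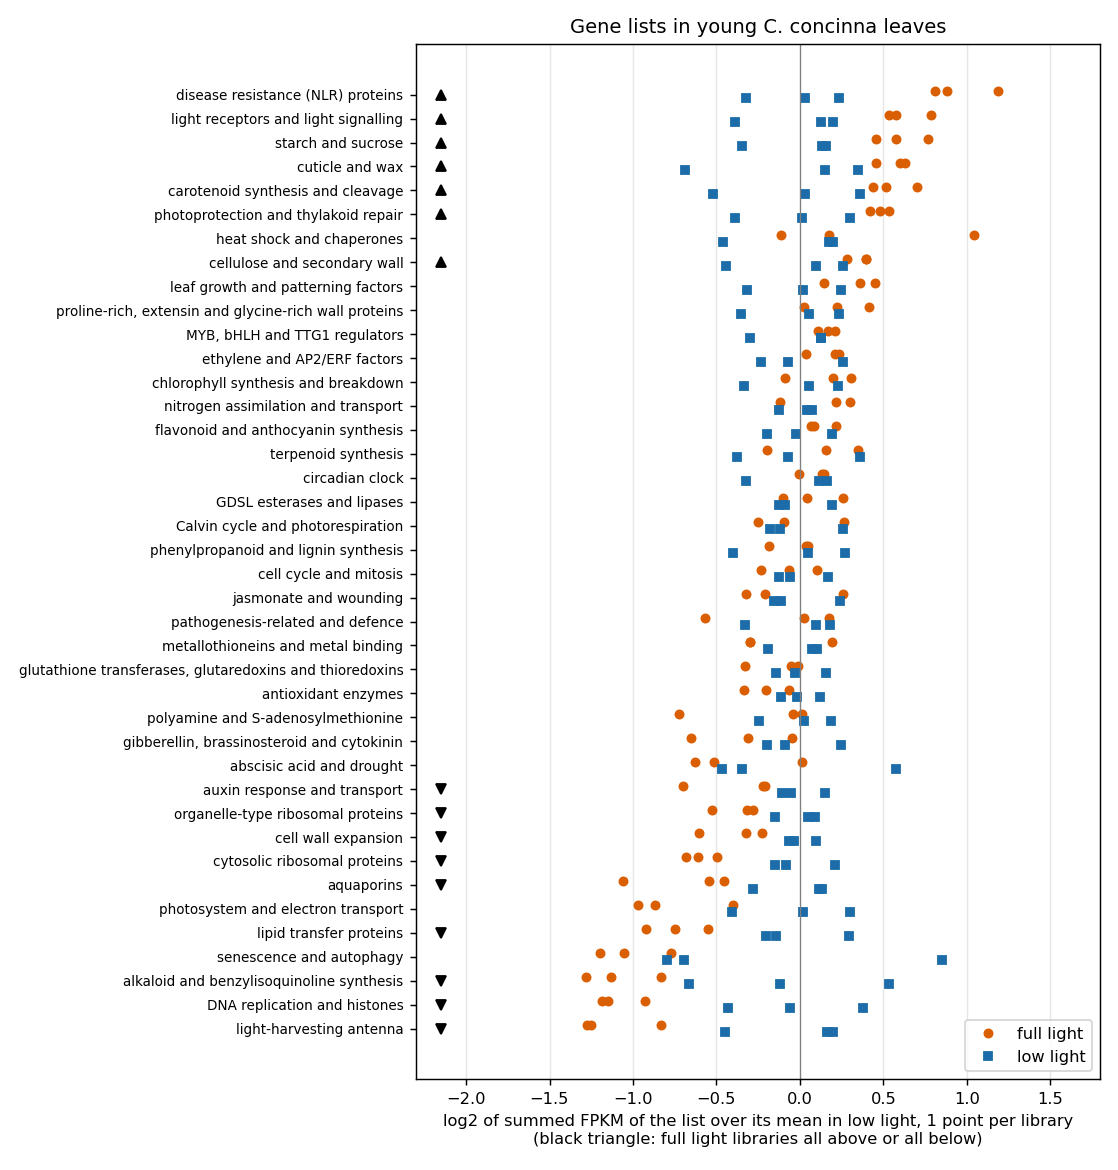
Summed FPKM of each of 40 gene lists in each young library, as log2 of its ratio to the list's mean in low light, circles for full and squares for low light, with black triangles where the groups do not overlap. Disease resistance proteins head the 7 lists with all full light libraries above, and antenna and histone lists stand at the bottom among the 9 with all below.

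Antenna genes of photosynthesis were lower in sum in full light. The 59 light-harvesting antenna unigenes summed to 11860, 12095 and 16154 FPKM in full light, against 33005, 32232 and 21054 in low light. This is 1.64% of all FPKM in full light and 3.33% in low light, a ratio of 0.465. Of 51 members, 0 were above and 20 below (39.2%), 0 were called, and the list median was -0.55, or -0.88 relative to that of all members. Under quantile normalization the relative median was -0.53. The median mean FPKM of the list was 62.6, a class in which the median of all members was -0.11 and 21.9% were below.

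The most abundant antenna transcripts were of the light-harvesting complex of photosystem II. LHCb1.2 (CL542.Contig5), its major protein, stood at 3754, 3874 and 4728 FPKM in full light, against 8737, 8985 and 6449.7 in low light (log2 fold change -0.96, limma adjusted p = 0.19). A second contig of the cluster, CL542.Contig4, stood at 1239, 1095 and 1826 in full light against 4641, 4516 and 2682 in low light (log2 fold change -1.50, limma adjusted p = 0.13). LHCII type 1 (Unigene2635) stood at 938, 997 and 1566 FPKM in full light, against 4121, 5025 and 2361 in low light, and chlorophyll a-b binding protein 2 (Unigene2634) at 483, 561 and 776 in full light against 2346, 2908 and 1508 in low light. In all 4 the groups were apart and young low light replicate 3 was the nearest to full light, but none passed the test over all unigenes. The 15 contigs of cluster CL542 summed to 6068, 6088 and 8342 FPKM in full light, against 17301, 16748 and 11158 in low light (limma adjusted p = 0.182).

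Photosystem and electron transport subunits, which turn the captured energy into reducing power, leaned the same way with more overlap. Their 92 unigenes summed to 5493, 5906 and 8133 FPKM in full light, against 13243, 10910 and 8127 in low light, so that replicates numbered 3 of both lights were level. The list median was -0.56, or -0.89 relative to all members, with 1 of 72 members above and 16 below (22.2%). Without young low light replicate 2 the list median was -0.39, or -0.59 relative to all members. Of the 92 unigenes, 6 are also among the markers of organelle-encoded and ribosomal RNA. Photosystem II reaction center W protein (Unigene12342) stood at 413, 442 and 542 FPKM in full light, against 1069, 1039 and 663 in low light (limma adjusted p = 0.176), while photosystem I subunit XI (Unigene23757), at 508, 670.2 and 924 in full light against 1658, 1044 and 874 in low light, overlapped. The chloroplast-encoded photosystem II protein D1 (Unigene6577), at 2.95, 2.72 and 2.78 FPKM in full light against 4.3, 184 and 12.5 in low light, was highest in young low light replicate 2, the library with the most organelle RNA.

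Photoprotection and thylakoid repair genes were higher in sum in full light, but their members stood close to all members. The 45 unigenes summed to 1273, 1331 and 1382 FPKM in full light, against 1173, 727 and 960 in low light, with 8 of 35 members above (22.9%, the share of all members) and 0 below. Relative to all members the list median was 0.05, with 0.03 under median-ratio rescaling and 0.02 without young low light replicate 2. FTSH (CL1190.Contig1), the thylakoid protease that removes damaged photosystem II protein, stood at 187, 145 and 128 FPKM in full light, against 72.7, 33.3 and 72.2 in low light (log2 fold change 1.42, limma adjusted p = 0.145). FTSH 2 (CL718.Contig2) stood at 77.8, 155 and 129.8 in full light against 69.3, 40.3 and 55.8 in low light (limma adjusted p = 0.205). The photosystem II 22 kDa protein (CL7495.Contig1), which switches antennae to heat dissipation, overlapped, at 265, 284 and 291 in full light against 291, 197 and 199 in low light. Carotenoid synthesis and cleavage, the source of protective pigments, summed to 457, 521 and 434 FPKM in full light, against 411, 223 and 327 in low light. Of 23 members 4 were above (17.4%) and 1 below, and the list median relative to all members was 0.18, with 0.08 under either rescaling and -0.08 without young low light replicate 2. Phytoene synthase (Unigene16684), its entry enzyme, stood at 50.3, 46.9 and 47.3 in full light against 40.7, 26.9 and 31.3 in low light.

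Carbon fixation genes overlapped in sum. The 73 Calvin cycle and photorespiration unigenes summed to 7277, 8090 and 10402 FPKM in full light, against 10364, 7659 and 7957 in low light. Of 59 members 17 were above (28.8%) and 1 below, and the list median was 0.33, level with all members. The Rubisco small chain Unigene4576 held 38.8% of the sum, and the ratio was 1.26 without it in place of 0.992, with sums that still overlapped. Rubisco small chains, subunits of the carbon-fixing enzyme, overlapped: Unigene4576 stood at 1885, 2535 and 3702 FPKM in full light against 4777, 3126 and 4060 in low light, and Unigene433 at 3033, 3052 and 4099 in full light against 3398, 3294 and 2235 in low light. Rubisco activase (CL3335.Contig3), which clears the enzyme's active site, was apart, at 386, 319 and 277 in full light against 185, 79.5 and 208 in low light (log2 fold change 1.15, limma adjusted p = 0.3). Chlorophyll synthesis and breakdown overlapped too, at 1673, 1270 and 1554 FPKM in full light, against 1583, 1075 and 1402 in low light.

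Light receptors and signalling components were higher in sum in full light. The 44 unigenes summed to 822, 692 and 712 FPKM in full light, against 548, 365 and 520 in low light, and 20 of 42 members were above (47.6%) and 0 below. Phototropin 2 (CL1109.Contig1), a blue light receptor that moves chloroplasts, stood at 67.7, 31.4 and 40.4 FPKM in full light, against 19.8, 9.45 and 24.4 in low light (log2 fold change 1.35, limma adjusted p = 0.171). HY5 (Unigene17288), the transcription factor that promotes light-grown development, stood at 64.4, 54.3 and 50.3 FPKM in full light against 22.3, 14.4 and 37 in low light (limma adjusted p = 0.205). The UV-B receptor UVR8-like (Unigene18104) overlapped, at 22.9, 29.4 and 31.6 in full light against 39.3, 37.9 and 29.2 in low light. Relative to all members the list median was 0.25, 0.22 under median-ratio rescaling and 0.24 under quantile normalization, and 0 members were called. Without young low light replicate 2 it was 0.18.

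The joint list of histones and DNA replication proteins was lower in sum in full light beyond the called H2B. The 129 unigenes summed to 5619, 6564 and 5492 FPKM in full light, against 9265, 16208 and 11996 in low light, a ratio of 0.472, and 0.554 without young low light replicate 2. Of 111 members, 5 were above and 39 below (35.1%), and H2B.11-like was the only one called. The list median was -0.22, or -0.55 relative to all members, with 46 log2 fold changes above 0 and 65 below 0. The transcripts named here are histones, and replication proteins were not summed apart from them. Histone H2B (Unigene5102) stood at 299, 377 and 341 FPKM in full light, against 699.7, 1409.6 and 957 in low light (log2 fold change -1.54, limma adjusted p = 0.117). Replacement histone H3.3 (Unigene36497), which enters chromatin outside replication, stood at 787, 1022 and 898 in full light against 1343, 1537 and 1319 in low light. Linker histone H1 (Unigene18650) overlapped, at 1140.3, 1374 and 827 in full light against 947, 726 and 1309 in low light.

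Other cell cycle genes overlapped as a group. The 233 cell cycle and mitosis unigenes summed to 2332, 2072 and 1846 FPKM in full light, against 1984, 2083 and 2436 in low light, and 31 of 203 members were above (15.3%) and 12 below (5.91%). The cyclin-dependent kinases regulatory subunit 1 (Unigene21475), a partner of the cell cycle kinase, stood at 225, 258 and 248 FPKM in full light, against 418, 487 and 411 in low light (log2 fold change -0.84, limma adjusted p = 0.169). Cyclin-D3-2 (Unigene6049), which starts the cycle, overlapped, at 163, 108 and 117 in full light against 112, 133 and 153 in low light.

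Ribosomal proteins were lower in sum in full light. The 274 cytosolic ribosomal protein unigenes summed to 18306, 20887 and 19255 FPKM in full light, against 27716, 34035 and 26524 in low light, with 7 of 227 members above (3.08%) and 108 below (47.6%). Their median log2 fold change was -0.49, which relative to all members is -0.82, with -0.92 under median-ratio rescaling and -0.44 under quantile normalization. 40S ribosomal protein S15-like (Unigene29915) stood at 433, 563 and 492 FPKM in full light, against 738, 955 and 880.2 in low light (log2 fold change -0.79, limma adjusted p = 0.162). 60S L29-1-like (CL5772.Contig3) stood at 196, 329 and 298 in full light against 547, 579 and 545 in low light, while 60S L7-4 (CL7352.Contig1) overlapped, at 429, 422 and 352 in full light against 377, 495 and 469 in low light. The median mean FPKM of the list was 80.6, a class in which the median of all members was -0.11. Organelle-type ribosomal proteins summed to 1932, 2232 and 2286 FPKM in full light, against 2967, 2874 and 2505 in low light, with 6 of 71 members above and 21 below (29.6%).

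Expansion and water transport were also lower in sum in full light. Wall-loosening proteins, expansins and xyloglucan enzymes, summed to 3942, 5115 and 4790 FPKM in full light, against 6415, 5835 and 5726 in low light. Expansin-A15-like (CL3876.Contig1), which loosens growing walls, stood at 154, 586 and 473 FPKM in full light against 998, 598 and 609 in low light (log2 fold change -1.03, limma adjusted p = 0.227). Of 88 members 5 were above and 15 below (17%), and without young full light replicate 1 the counts were 19 and 19. Aquaporins, the membrane water channels, summed to 2502, 3809 and 3574 FPKM in full light, against 5663, 5713 and 4291 in low light. Of 18 members 2 were above and 5 below (27.8%). Relative to all members the list median was -0.63, and -0.19 under quantile normalization. The median mean FPKM of the list was 78.2, a class in which 21.9% of all members were below. The tonoplast type TIP3 (Unigene21154) stood at 419, 509 and 657 FPKM in full light against 1316, 1808 and 701 in low light, and the plasma membrane type PIP1;3 (Unigene4783) at 399, 514 and 473 in full light against 717, 651 and 665 in low light. Auxin response and transport summed to 908, 1273 and 1267 FPKM in full light, against 1634, 1369 and 1419 in low light, with 2 of 58 members above and 9 below (15.5%). Without young full light replicate 1 these counts were 10 and 11, and the ratio of the sums was 0.86 in place of 0.78. Auxin-induced protein 15A (Unigene38279), of the small auxin-up RNA family, stood at 92.2, 75.1 and 113 in full light against 173, 282 and 172 in low light (limma adjusted p = 0.153).

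Among leaf surface genes, those of cuticle and wax were higher in sum in full light and lipid transfer proteins lower. Cuticle and wax genes summed to 6022, 5450 and 6163 FPKM in full light, against 5056, 2464 and 4417 in low light, a ratio of 1.48, and 1.24 without young low light replicate 2. Of 81 members 17 were above (21%, near the share of all members) and 0 below. The list median relative to all members was 0.23, with 0.14 under median-ratio rescaling and 0.10 without that library. ECERIFERUM 1-like (Unigene14260), of wax alkane synthesis, stood at 680, 466 and 424 FPKM in full light, against 345, 202 and 318 in low light (log2 fold change 0.86, limma adjusted p = 0.202). HOTHEAD-like (Unigene13959), of cutin synthesis, stood at 379, 393 and 474 in full light against 265, 144 and 231 in low light, while the cutin hydroxylase P450 86A8 (Unigene29533) overlapped, at 316, 501 and 580.3 in full light against 543, 117 and 284 in low light. Lipid transfer proteins, small secreted lipid carriers, summed to 3719, 3307 and 4276 FPKM in full light, against 5655, 7685 and 5431 in low light. The leading non-specific lipid-transfer protein (Unigene35810), which held 65.4% of that sum, stood at 2754, 2039 and 2782 FPKM in full light against 3576, 4924 and 3585 in low light. Of the 28 members of the list, 2 were above and 8 below (28.6%).

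Carbohydrate genes were higher in sum in full light. Starch and sucrose metabolism summed to 1731, 1395 and 1518 FPKM in full light, against 1136, 802 and 1117 in low light, a ratio of 1.52, and 1.37 without young low light replicate 2. Of 95 members 29 were above (30.5%) and 2 below. Beta-amylase 1 (Unigene16335), which breaks down starch, stood at 142, 53.8 and 111 FPKM in full light against 50.2, 49 and 38.1 in low light, and sucrose synthase 2-like (CL568.Contig1) overlapped, at 119, 164 and 239 in full light against 144, 43.3 and 106 in low light. Cellulose and secondary wall genes summed to 1760, 1901 and 1898 FPKM in full light, against 1544, 1062 and 1728 in low light, a ratio of 1.28, and 1.13 without young low light replicate 2. Of 64 members 20 were above (31.2%), 0 below and 1 called, cellulose synthase-like E6. The list median relative to all members was 0.23, and 0.11 without that library.

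Disease resistance (NLR) proteins, intracellular receptors that recognise pathogen effectors, had the largest ratio of the 40 lists. Their 391 unigenes summed to 2438, 1974 and 1881 FPKM in full light, against 1098, 858 and 1264 in low light, a ratio of 1.95, and 1.78 without young low light replicate 2. Of 308 members, 115 were above (37.3%) and 1 below, and 0 were called. The median was 0.76, which relative to all members is 0.43, with 0.49 under median-ratio rescaling and 0.34 under quantile normalization. No single member carried the sum, since the most abundant (Unigene33913) held 2.25% of it and overlapped, at 28.3, 44.4 and 48.5 FPKM in full light against 28.8, 15.6 and 48.4 in low light. The resistance protein At5g47280 type (Unigene36861) stood at 33.1, 46.7 and 39.8 FPKM in full light, against 25.5, 21.1 and 24.9 in low light (log2 fold change 0.71, limma adjusted p = 0.18). These are low transcripts, with a median mean FPKM of 3.46, a class in which the median of all members was 0.45 and 24.6% were above. Pathogenesis-related and defence proteins, which act downstream, overlapped, at 2585, 4328 and 3897 FPKM in full light, against 4090, 4350 and 3056 in low light.

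Flavonoid, phenylpropanoid and terpenoid genes overlapped in sum, and alkaloid genes were below in full light. Flavonoid and anthocyanin genes summed to 5887, 5364 and 5305 FPKM in full light, against 4413, 4988 and 5798 in low light, with 4 of 42 members above (9.52%) and 4 below. Flavonol synthase (Unigene32275), which makes UV-absorbing flavonols, was apart, at 1786, 1866 and 1549 FPKM in full light against 765, 979 and 1076 in low light, but did not pass the test (log2 fold change 0.89, SE 0.76, limma adjusted p = 0.543). That SE draws on all 4 groups, and the mature libraries ranged from 5.96 to 169 FPKM. Young means were 1734 ± 165 FPKM in full light and 940 ± 159 in low light (SD, n = 3 each). Chalcone synthase 1 (CL1127.Contig3), the first enzyme of the pathway, was level, at 1228, 1127 and 1041 in full light against 1001, 1123 and 1282 in low light (SE of the log2 fold change 0.32). Phenylpropanoid and lignin genes summed to 2199, 2580 and 2555 FPKM in full light, against 2581, 1890 and 3015 in low light, and terpenoid genes to 950, 745 and 1086 in full light against 1092, 655 and 810 in low light. The alkaloid list summed to 1490, 1342 and 1837 FPKM in full light, against 2058, 3009 and 4733 in low light, a ratio of 0.476. A tropinone reductase homolog (CL525.Contig4), of a reductase family that also has members outside alkaloid synthesis, held 51.4% of it, at 647, 586 and 894 FPKM in full light, against 1045, 1439 and 2820.1 in low light. Without that contig the ratio was 0.565 and the sums were still apart, with 3 of 30 members above and 3 below (10% each).

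Heat shock, leaf growth, antioxidant and abscisic acid lists overlapped in sum. Heat shock and chaperone members were above in 55 and below in 7 of 229 (24% and 3.06%), yet their sums overlapped, and without young full light replicate 1 their ratio was 1.03 in place of 1.37. Heat shock cognate 70 kDa protein 2 (Unigene18166), a general chaperone, stood at 2567, 1599 and 1367 FPKM in full light, against 768, 1287 and 1326 in low light. Among leaf growth and patterning factors 27.6% of members were above and 6.5% below, and the polarity factor YABBY 5-like (CL3998.Contig1) was level, at 159, 152 and 167 in full light against 244, 166 and 139 in low light. Antioxidant enzymes summed to 3967, 4787 and 4335 FPKM in full light, against 5433, 4938 and 4631 in low light. Abscisic acid and drought genes summed to 3990, 4308 and 6211 FPKM in full light against 9177, 4467 and 4855 in low light, with young low light replicate 1 high.

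Whether light acted differently in young and mature leaves was tested with the difference of their light effects. Limma called 3 of 53005 unigenes (0.00566%), of which 2 are members (0.00494% of members), and 5725 (10.8%) had an unadjusted p under 0.05. CL750.Contig3, the ankyrin repeat contig, was high in young full light leaves only, with mature leaves listed at 0 but for 0.31 FPKM in 1 low light library (difference 3.17, SE 0.36, limma adjusted p = 0.0201). That call was lost when any of young full light replicate 2, the 3 young low light replicates or replicate 3 of either mature group was left out. CL3584.Contig1, without a hit, was level in young leaves, at 8.72, 7.89 and 5.86 FPKM in full light, against 9.97, 8.02 and 10.4 in low light, and in mature leaves stood at 11.1, 10.9 and 10.1 in full light against a listed 0 in low light (difference -3.86, limma adjusted p = 0.00419). Summed over its 2-contig cluster that difference was 0.44 and did not pass. In mature leaves alone 30 unigenes (0.0566%) were called for light, 16 of them members (0.0395%), and 3492 (6.59%) had an unadjusted p under 0.05.

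Several lists whose sums were apart in young leaves overlapped in mature ones. Antenna genes averaged 13370 ± 2414 FPKM in full light against 28764 ± 6688 in low light in young leaves, and 24039 ± 5041 in full light against 29034 ± 7978 in low light in mature leaves (SD, n = 3 each). NLR genes averaged 2097 ± 298 FPKM in full light and 1073 ± 204 in low light in young leaves, and 1529.9 ± 458 in full light and 1543 ± 487 in low light in mature leaves. Cuticle and wax genes averaged 5878 ± 378 FPKM in full light and 3979 ± 1350 in low light in young leaves, and 1507 ± 724 in full light and 1495 ± 1127 in low light in mature leaves. Histone and DNA replication genes were apart at both ages, at 5891 ± 586 FPKM in full light and 12490 ± 3498 in low light in young leaves, and 4254 ± 987 in full light and 7128 ± 992 in low light in mature leaves. Wall expansion genes were also below in full light in mature leaves, at 622 ± 53.4 FPKM in full light and 1174 ± 406 in low light. Starch and sucrose genes were above at both ages, with 4888 ± 248 FPKM in full light and 3263 ± 907 in low light in mature leaves. The difference of these sums between ages was not tested.

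**Figure D5:**
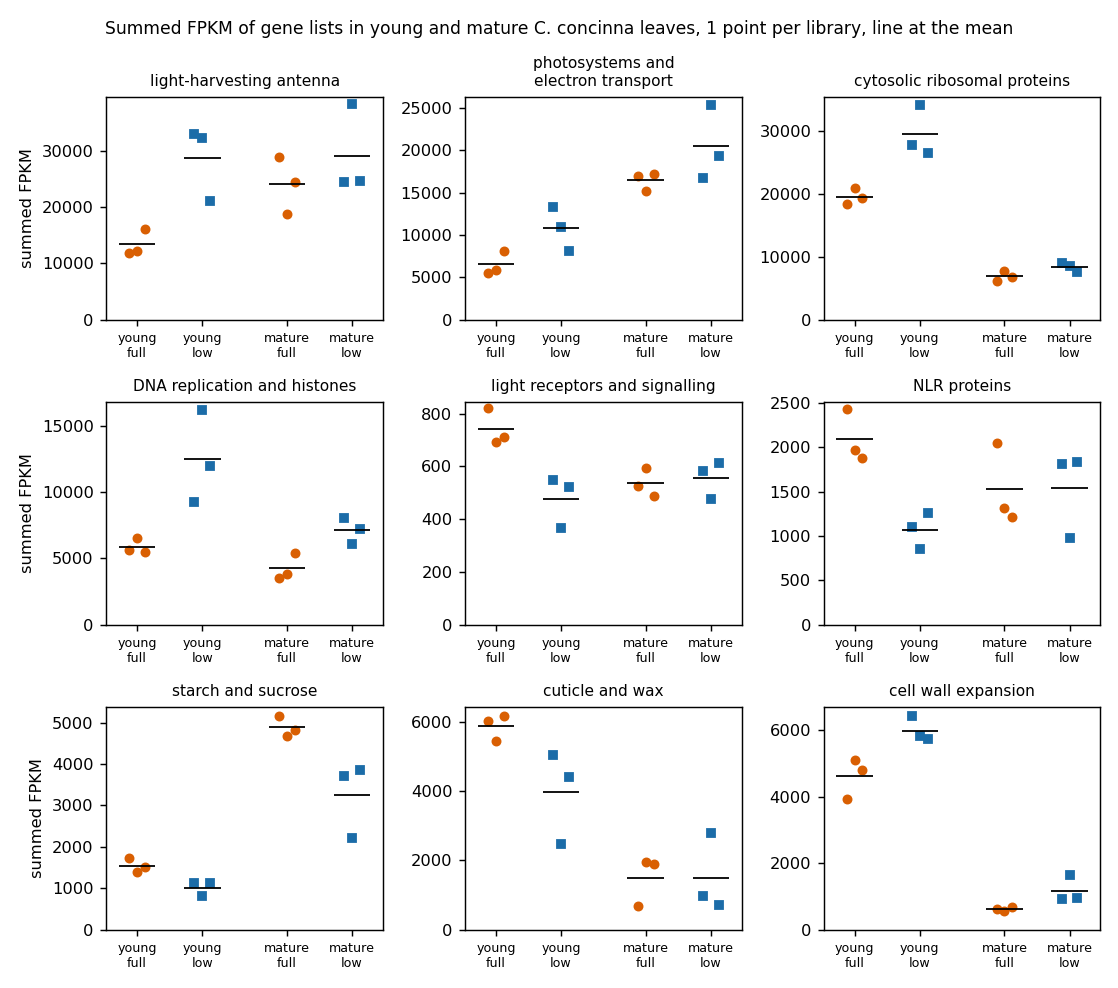
Summed FPKM of 9 gene lists in full and low light libraries of young and mature leaves, with 1 point per library and a line at each mean. Antenna, NLR and light receptor lists are apart between lights in young leaves and overlap in mature leaves, while histone, starch and sucrose, and cell wall expansion lists are apart at both ages.

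The 10 most abundant transcripts of young leaves included wall proteins, antenna proteins and Rubisco small chains, and the wall proteins overlapped. CL2130.Contig2, whose best hit is a proline-rich repeat protein of the wall at a weak E-value of 5.03e-07, stood at 6399, 11194 and 8567 FPKM in full light, against 9227, 7770.2 and 8415 in low light. Extensin-2 (Unigene16568), a hydroxyproline-rich wall glycoprotein, stood at 7971, 5800.3 and 4692 in full light against 2606, 2372 and 6562 in low light, and proline-rich protein 4-like (Unigene6825) at 2421, 4812 and 5024 in full light against 2688, 241 and 1841 in low light. Among the 10 most abundant, only the 2 antenna contigs of cluster CL542, the leading lipid-transfer protein and CL5667.Contig3 had groups apart, all below in full light.

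Below the threshold, members with an informative description, groups apart, an unadjusted p under 0.05 and at least 20 FPKM in the higher light numbered 512 higher and 455 lower in full light. The share of such members was not computed, so these counts have no background. Among all members averaging 20 to 50 FPKM, 16.9% were above and 11.1% below, and at 50 to 100 FPKM 10.1% and 21.9%. The examples here were chosen by the size of their fold change after values were seen. Wall-associated receptor kinase-like 16 (CL1553.Contig1), of a family that binds wall pectin, stood at 11.4, 41.5 and 21.6 FPKM in full light, against 0.13, 0.05 and 0.46 in low light (limma adjusted p = 0.166). On the low light side, histone H3.v1-like (Unigene7195) stood at 88.3, 91 and 105 FPKM in full light, against 262, 875 and 611 in low light (limma adjusted p = 0.165), and the centromeric histone type CSE4 (Unigene25036) at 62.3, 51 and 62.6 in full light against 221, 698 and 269.9 in low light. Both names are those of best hits, and identity as histones was not tested. A disease resistance response protein 206-like (Unigene12357), of the dirigent family that steers lignan coupling, stood at 8.55, 4.8 and 6.97 FPKM in full light against 12.8, 99.1 and 51 in low light. Snakin-1 (Unigene1486), a small antimicrobial peptide of the gibberellin-regulated family, stood at 54.5, 28.6 and 51.4 FPKM in full light against 85.2, 259 and 191 in low light (log2 fold change -1.88, limma adjusted p = 0.122). Listed at 0 throughout low light, yet not called, was a BTB/POZ domain protein (CL4226.Contig2), at 12.6, 13.1 and 12.7 FPKM in full light (limma adjusted p = 0.134). Its SE of 0.82 draws on all 4 groups, and its 3 mature low light libraries stood at 22.5, 0.21 and 19.3 FPKM.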

How the data were processed

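RNA came from flash-frozen C. concinna leaves, extracted with a Magen kit and made into standard Illumina libraries, per the labels' protocols. The authors deposited FPKM per unigene and library, with RSEM 1.2.12 named in the submitters' processing notes. The assembler, aligner and filters are not given in the sources used here, and absolute depth is unknown, so no counting interval was computed. Each unigene carried a best protein hit, per the file headers, for 28976 of 40492 members, with an informative description for 16228. No genome or sequence table was at hand, so no sequence or coordinate is given.

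The 53005 unigenes that reached 1 FPKM in 3 or more of 12 C. concinna libraries entered limma 3.58.1 (R 4.3.3) as log2(FPKM + 1), with the 4 groups sharing the spread, trended moderation, two-sided tests and Benjamini-Hochberg adjustment. Fold changes are full minus low light on that scale, which understates low transcripts, and differences against libraries listed at 0 are no bound. The code was tested on simulated data. Library measures used exact permutation tests (scipy 1.17.1, Python 3.11.15, pandas 2.3.3, numpy 2.4.6), and figures matplotlib 3.10.9.

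Members and gene lists were chosen with earlier results of these data known. Lists are word patterns on hit descriptions, not curated pathways, and 14711 members (36.3%) belong to clusters that can share reads. Named unigenes are those called, up to 12 per direction and 2 per direction and list, the most abundant (10 in all and up to 4 per list), and 5 per direction listed at 0 in 1 light. The 4 per list and the examples below the threshold were added after values were seen. Replicate numbers do not pair the samples, since deviations of same-numbered young libraries correlated at -0.24, 0.02 and -0.10. Other settings were a pseudocount of 0.1, no filter or a mean FPKM from 5 up, median-ratio and quantile scaling, a replicate block, limma without trend, only the 6 young libraries, a 2-fold minimum, summed clusters and leaving out each library.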

Additional observations from a re-analysis of the deposited data

Results flagged for a closer look

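Of the results above, 3 unigenes were singled out because their response to light differed between young and mature leaves in limma's test of that difference. CL750.Contig3, the ankyrin repeat contig, had a difference of 3.17 (SE 0.36), being high in young full light leaves alone. CL3584.Contig1, without a hit, had a difference of -3.86 (SE 0.36) and was listed at 0 only in mature low light leaves. CL1691.Contig2, an ER membrane protein complex subunit 3-like contig that is not a member, had a difference of 4.76 (SE 0.46), and was listed at 0 in all 6 young libraries and in mature full light leaves, against 17.4, 39.5 and 25.9 FPKM in mature low light leaves. All 3 are contigs of clusters, and with clusters summed none passed. The calls of CL3584.Contig1 and CL1691.Contig2 were kept whichever library was left out. The cluster of CL1691.Contig2 summed to 64.7, 80.5 and 81.6 FPKM in young full light leaves and 100.3, 98 and 96.2 in young low light leaves. With 3 libraries a group, no test for a single outlying library was run.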

How the results depend on the processing

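Calls for light in young leaves numbered 16 (81.2% higher in full light). They numbered 16 after median-ratio rescaling (62.5% higher) and 14 after quantile normalization (57.1% higher). They were 30 with a pseudocount of 0.1, 6 at a mean FPKM of at least 5, 10 with clusters summed and 7 with only the 6 young libraries. The replicate block gave 10, and 0 with only the young libraries, where 6379 had an unadjusted p under 0.05. Leaving out 1 library gave 11 to 66, the 66 without young low light replicate 1 (31 higher, 35 lower). Without young low light replicate 2 there were 12, of which 7 were shared with the 16. Light-by-age calls numbered 3, then 1 at a mean FPKM of at least 5, 5 and 7 after the 2 rescalings, 0 with clusters summed, and 2 to 13 with a library left out, most without mature low light replicate 2. Mature calls numbered 30, then 13 at a mean FPKM of at least 5, 46 after quantile normalization, 10 with the block, 15 with clusters summed, and 12 to 64 with a library left out. CL3584.Contig1 turned to a light-by-age difference of 0.44 with its cluster summed. The other settings kept these counts within 1.5 times. Same-numbered libraries did not each correlate best with one another.

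No called unigene changed direction. Of 968 list medians under other settings, 77 moved by more than the replicate spread and 69 turned sign. Without young low light replicate 2, antenna stood at -0.57, cytosolic ribosomal proteins at -0.38, histones at -0.26 and NLR at 0.70, against 0.20 for all members. The gap in unigenes detected was 7517, 5892 at an FPKM of at least 0.3, 3236 at 5, and 6124 to 8367 with a library left out. The gap in the share of the 100 most abundant was -3.94 percentage points, -2.34 without young low light replicate 2. With depth unknown, the counting error of values near 0 could not be estimated.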

Other observations

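Among gene lists not described above, none had sums apart between the lights in young leaves. Circadian clock genes summed to 781, 859 and 868 FPKM in full light, against 877, 628 and 847 in low light, with 11 of 30 members above (36.7%) and 3 below. MYB, bHLH and TTG1 regulators summed to 2220, 2387 and 2320 FPKM in full light, against 2257, 1680 and 2254 in low light. Gibberellin, brassinosteroid and cytokinin genes summed to 1129.7, 1716 and 1434 FPKM in full light against 2109, 1553 and 1671 in low light. A gibberellin-induced protein (Unigene41800), the most abundant of these, was apart, at 325, 366 and 395 FPKM in full light against 886, 491 and 532 in low light (limma adjusted p = 0.179).

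Redox, nutrient and turnover genes overlapped too. Glutathione transferases, glutaredoxins and thioredoxins summed to 5091, 6327 and 6163 FPKM in full light, against 7119, 6265 and 5785 in low light. Nitrogen assimilation and transport genes summed to 901, 1206 and 1141 FPKM in full light against 1033, 899 and 1010 in low light, with 7 of 35 members above (20%) and 0 below. Senescence and autophagy genes summed to 441, 592 and 488 FPKM in full light against 626, 1827 and 582 in low light, high in young low light replicate 2. Wall proline-rich, extensin and glycine-rich proteins summed to 25803, 33785 and 29602 FPKM in full light, against 26357, 19856 and 29880 in low light, and in mature leaves to 200531 ± 126995 in full light against 83162 ± 13602 in low light (SD, n = 3 each).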
